A study of Homo sapiens with 12 samples.

Results

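The transcripts described here come from 48 genes of the mitotic spindle, the kinetochore, chromosome condensation and cytokinesis, taken from a table of read counts for 26485 genes. The members are a fixed list of gene symbols, and each was found in the table by an exact match of its symbol. All 48 were matched, and all 48 passed the filter on low counts that left 14498 genes for testing. The counts come from RNA-seq of COV362 and PEO1, established human ovarian carcinoma cell lines. The study exposed each line to 20 nM prexasertib, a drug that blocks CHK1 and CHK2, or to the solvent DMSO, which allows the effect of the drug on expression to be compared within each line.

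The 4 groups held 3 libraries each: COV362 with DMSO, COV362 with prexasertib, PEO1 with DMSO and PEO1 with prexasertib. The labels call the DMSO libraries parental and the treated ones parental with drug, and they mark the 3 libraries of each group with the letters A, B and C. The growth medium was the same for both lines. Each line is a single cell line, so a difference between the lines is a difference between 1 line and another. The labels give neither the length of the treatment nor whether A, B and C were separate cultures, so the p-values measure the spread between these libraries, which may be technical.

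Mitotic genes are transcribed in waves that peak in late G2 and mitosis. Their promoters typically carry CCAAT boxes, bound by NF-Y, and a cell cycle genes homology region (CHR), through which the DREAM complex represses them early in the cycle and the MYBL2-MuvB and FOXM1 complexes activate them later. CHK1 restrains cyclin-dependent kinase activity when replication is incomplete, and its inhibition is known to let cells with unfinished replication move towards mitosis. Many of these genes are also the standard proliferation markers of tumour profiling.

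Promoter windows from RefSeq (GRCh38.p14, 250 bases before and 50 bases after the gene start) matched 40 of the 48 members. A CHR, searched as TTTGAA or TTTAAA on both strands, occurred in 36 of these 40 windows (90%) and in 24.3% of 27305 windows of the same length over all genes. A CCAAT box, searched as CCAAT on both strands whether or not it overlapped a CHR, occurred in 30 of 40 members (75%) and in 35.7% of all windows. Among members with a window, the CHR was present in 7 of 8 that were lower in PEO1 after prexasertib, in 2 of 3 that were higher and in 27 of 29 that did not pass the test. The stretches before the gene's span in the deposited table are printed for 2 genes that fell in PEO1 (CDC20 and PLK1) and 2 that rose (NEK2 and CENPE), 5′ to 3′ on the gene's strand, with CHR and CCAAT letters in capitals (TTCAAA and ATTGG are their reverse strands). They lie at chr1:43358731-43358954 (CDC20, + strand), chr16:23678639-23678821 (PLK1, + strand), chr1:211675631-211675871 (NEK2, - strand) and chr4:103198410-103198593 (CENPE, - strand).
CDC20: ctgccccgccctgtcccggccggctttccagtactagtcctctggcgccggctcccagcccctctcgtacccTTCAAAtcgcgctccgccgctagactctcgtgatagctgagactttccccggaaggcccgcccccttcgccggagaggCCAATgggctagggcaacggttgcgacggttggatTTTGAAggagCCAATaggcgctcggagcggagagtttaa
PLK1: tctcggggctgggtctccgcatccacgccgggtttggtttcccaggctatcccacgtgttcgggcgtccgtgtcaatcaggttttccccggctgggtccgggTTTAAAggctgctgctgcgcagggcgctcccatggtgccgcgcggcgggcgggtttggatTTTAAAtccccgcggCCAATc
NEK2: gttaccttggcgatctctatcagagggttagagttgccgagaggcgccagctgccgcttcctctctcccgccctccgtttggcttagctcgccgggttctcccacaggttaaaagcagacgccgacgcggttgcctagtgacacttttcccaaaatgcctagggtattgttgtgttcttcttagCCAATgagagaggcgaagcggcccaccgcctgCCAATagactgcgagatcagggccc
CENPE: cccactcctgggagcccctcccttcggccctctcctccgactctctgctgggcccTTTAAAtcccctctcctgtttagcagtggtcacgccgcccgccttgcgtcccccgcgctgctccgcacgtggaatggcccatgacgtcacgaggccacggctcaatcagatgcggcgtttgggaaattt
CDC20 held 2 CHR and 2 CCAAT matches in the printed stretch, and PLK1 held 2 CHR matches and 1 CCAAT match. NEK2 held 2 CCAAT matches and no CHR, and CENPE held 1 CHR and no CCAAT. Over the full 250 bases before the RefSeq start, PLK1 and CENPE each held 3 CHR matches, and the other counts of these genes were the same. A CHR was thus in stretches of a gene that rose and of genes that fell.

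Library totals ran from 9390790 counts (COV362 with DMSO, A) to 18262805 counts (COV362 with DMSO, B). The summed level of the 48 members was 10320 to 11720 CPM (a gene's count scaled to a common library total over tested genes, with TMM factors) in the 6 COV362 libraries, 7782 to 8171 in PEO1 with DMSO and 7116 to 7991 in PEO1 with prexasertib. Of 12 tubo-ovarian epithelial markers, PAX8, KRT7, KRT8 and KRT18 were detected in both lines, whereas CDH1 was near 0 in COV362 with DMSO (0.346 ± 0.153 CPM, SD, n = 3) and SOX17, EMX2 and FOLR1 were at 0 in PEO1 with DMSO. Summed leukocyte markers reached at most 5.16 CPM in any library, summed fibroblast markers at most 7.22 CPM, and LUM was at 0 throughout. The endothelial list reached 88.2 CPM in COV362, nearly all of it CDH5 (73.9 ± 8.46 CPM with DMSO). In both lines the A libraries resembled each other and so did the B libraries, A leaning towards shorter genes and B towards longer, AT-rich ones. The C libraries of PEO1 did so less, their deviations from the group means correlating at 0.12, beside 0.303 for DMSO C with prexasertib B. Results are therefore given also with the letter as a term in the model, with a correction for length and GC content, and without the A or the B libraries.

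PEO1 responded to prexasertib with a lower level of a set of mitotic regulators and a higher level of a few others. PLK1, NCAPH, CDC20, SPC25, SPC24, PRC1, FOXM1, CENPA and KIF20A fell, by 0.43 to 0.97 on the log2 scale, and CENPE, NEK2 and CKS1B rose, by 0.35 to 0.81. The remaining 36 members did not pass the test. With the letter of the libraries as a term within each line, same-letter libraries were treated as pairs. In that fit 23 of those 36 members passed as well, and they are named with their role below. A gene was called when its Benjamini-Hochberg adjusted p over all 14498 genes (edgeR quasi-likelihood test) was under 0.05. The 9 lower members of 48 compare with 14.6% of all tested genes called lower in PEO1 and the 3 higher with 14.7% called higher, so the number of members called was not itself out of the ordinary in a comparison that called 29.3% of all genes. The median log2 change of the 48 members was -0.0862, beside 0.00893 over all tested genes. In 14 members every prexasertib library lay below every DMSO library and in 11 every one lay above, where 25% of all genes lay in each of these states. The libraries hold RNA from bulk cultures, in which fewer mitotic cells and less RNA per cell cannot be told apart.

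**Figure D1:**
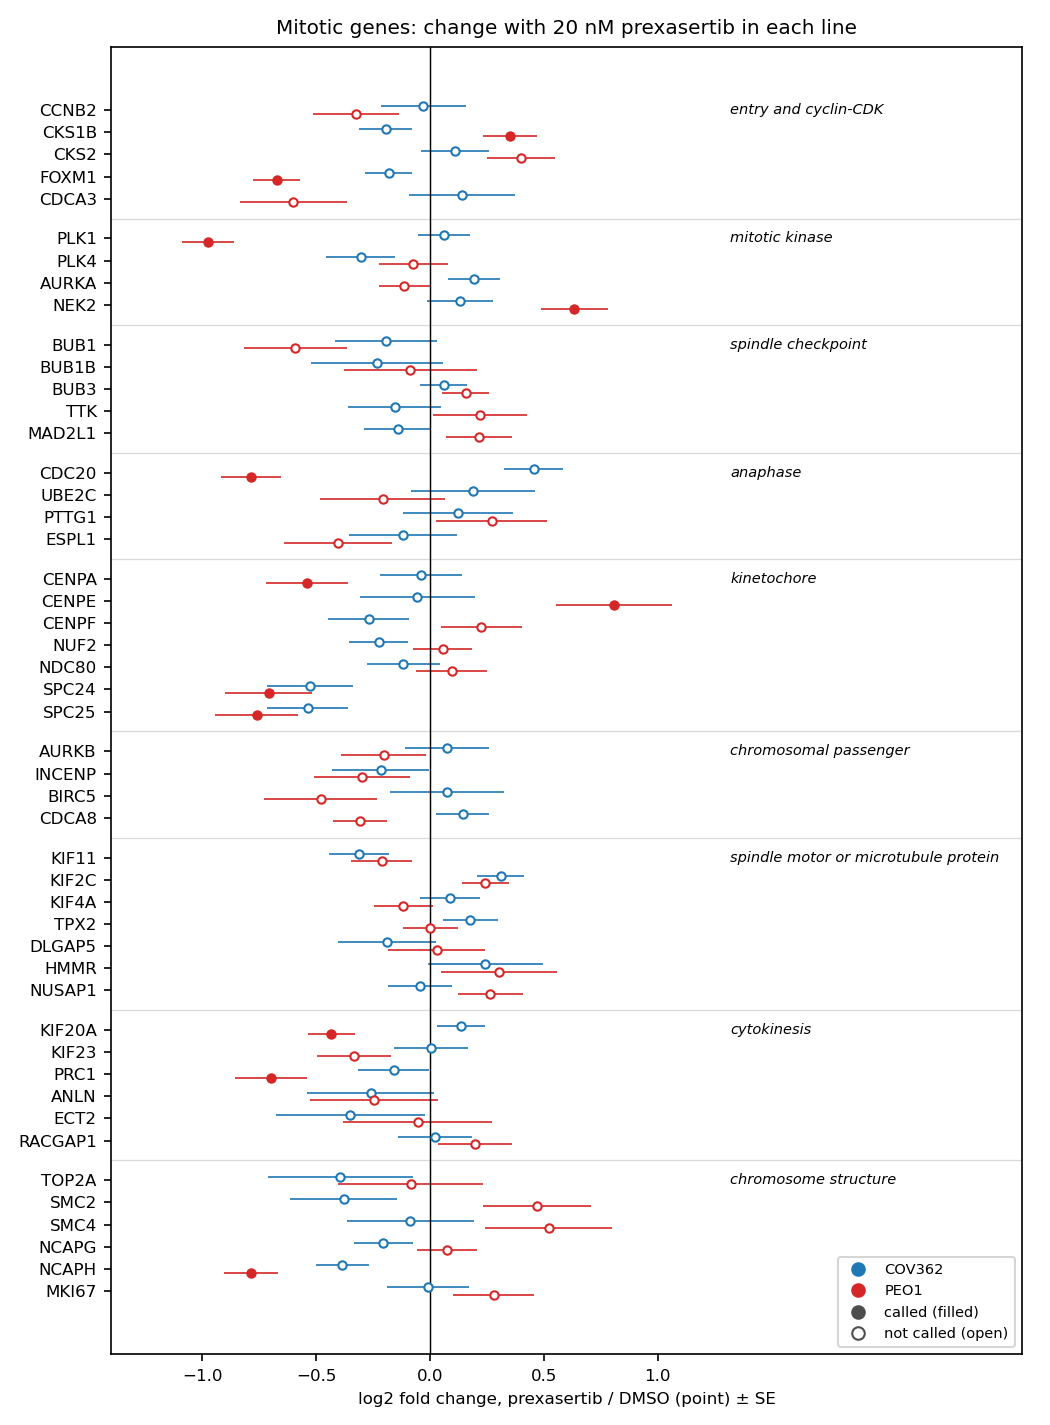
Log2 fold change of prexasertib over DMSO (x axis) for the 48 mitotic genes (y axis, grouped by role) in COV362 (blue) and PEO1 (red), with the standard error of the fitted change. Filled points passed the test without the letter as a term: 12 in PEO1 and none in COV362.

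Among genes of mitotic entry, FOXM1, the forkhead factor that activates G2 and mitotic genes (chr12:2857681-2877155, - strand), was at 926.8, 888.4 and 891 CPM in the PEO1 DMSO libraries A, B and C and at 564.7, 579.7 and 553.1 CPM with prexasertib. The groups were far apart, and the log2 change was -0.67 ± 0.10 (SE, adjusted p = 0.00042). CKS1B, a small subunit that binds cyclin-dependent kinases, was at 110.8, 111.6 and 92.77 CPM with DMSO and at 146.9, 131.4 and 123.6 CPM with prexasertib, so that all treated libraries were higher. Its change of 0.35 ± 0.12 passed narrowly (adjusted p = 0.0372), and the call was lost in 8 of the 12 fits that left out 1 library, each time a PEO1 library or the C library of either COV362 group was missing, with adjusted p up to 0.245 (without PEO1 DMSO C). Its paralog CKS2 moved from 107.7, 88.93 and 87.71 CPM to 140.6, 111.9 and 123 CPM (log2 change 0.40 ± 0.15, adjusted p = 0.058). The mitotic cyclin CCNB2 (-0.33 ± 0.19) and CDCA3, which helps degrade WEE1 at mitotic entry (-0.60 ± 0.24, adjusted p = 0.0701), had lower values without passing. With the letter as a term these 3 genes passed, CKS2 higher (0.40, adjusted p = 6.53e-05) and CDCA3 (-0.58, adjusted p = 5.73e-06) and CCNB2 (-0.33, adjusted p = 0.00134) lower. CKS2 and CKS1B were not called with the letter and the length and GC correction together.

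Of the mitotic kinases, PLK1, which drives centrosome maturation, spindle assembly and mitotic exit (chr16:23678822-23690367, + strand), had the largest decrease of all members. It was at 174.7, 174.7 and 177 CPM with DMSO and at 81.16, 90.5 and 96.21 CPM with prexasertib. Every treated library was thus far below the DMSO libraries, and the log2 change was -0.97 ± 0.12 (adjusted p = 6.13e-05). NEK2, a kinase that separates the centrosomes (chr1:211658257-211675630, - strand), went the other way, from 38.51, 43.54 and 37.67 CPM to 65.53, 60.66 and 59.57 CPM. The groups did not overlap, the change was 0.63 ± 0.15 (adjusted p = 0.00571) and the call was kept in all 12 fits that left out 1 library. AURKA, the centrosomal Aurora kinase, was at 245.3, 238.7 and 202.2 CPM with DMSO and at 215.8, 206.9 and 212 CPM with prexasertib, with overlapping groups and a change of -0.11 ± 0.11 (adjusted p = 0.49). PLK4, which licenses centriole duplication, had a value of -0.07 ± 0.15 and did not pass either. Neither AURKA nor PLK4 passed with the letter as a term, and both were called lower with the letter and the length and GC correction together (-0.21, adjusted p = 0.00402, and -0.41, adjusted p = 0.00308). PLK4 was also called lower with the correction alone (-0.40, adjusted p = 0.0399).

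The spindle checkpoint holds anaphase until all kinetochores are attached, and CDC20 is the activator of the anaphase-promoting complex on which it acts. CDC20 (chr1:43358955-43363202, + strand) was at 362.4, 329.8 and 327.5 CPM in PEO1 with DMSO and at 193.4, 181.9 and 215.9 CPM with prexasertib. The groups were well separated, with a log2 change of -0.79 ± 0.13 (adjusted p = 0.000732). None of the 5 checkpoint members passed: BUB1 had the lowest value (-0.59 ± 0.23, adjusted p = 0.064) with all treated libraries below all DMSO libraries. BUB1B, the BUBR1 kinase, was at 45.49, 68.68 and 68.9 CPM with DMSO and at 47.33, 71.05 and 53.96 CPM with prexasertib, an overlap of groups in which both A libraries were the lowest. BUB3, TTK and MAD2L1 had values of 0.16 to 0.22 and did not pass. With the letter as a term BUB1 was called lower (-0.59, adjusted p = 9.14e-07) and MAD2L1 higher (0.22, adjusted p = 0.0426). BUB1B was called lower with the letter and the length and GC correction together (-0.27, adjusted p = 0.00878). The other anaphase genes, the ubiquitin-conjugating enzyme UBE2C (-0.21 ± 0.27), securin PTTG1 (0.27 ± 0.24) and separase ESPL1 (-0.40 ± 0.24), did not pass. When the letter was added to the model, ESPL1 (-0.40, adjusted p = 0.00138) and UBE2C (-0.22, adjusted p = 0.0395) were called lower and PTTG1 higher (0.28, adjusted p = 0.00438). ESPL1 and MAD2L1 were not called with the letter and the length and GC correction together.

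**Figure D2:**
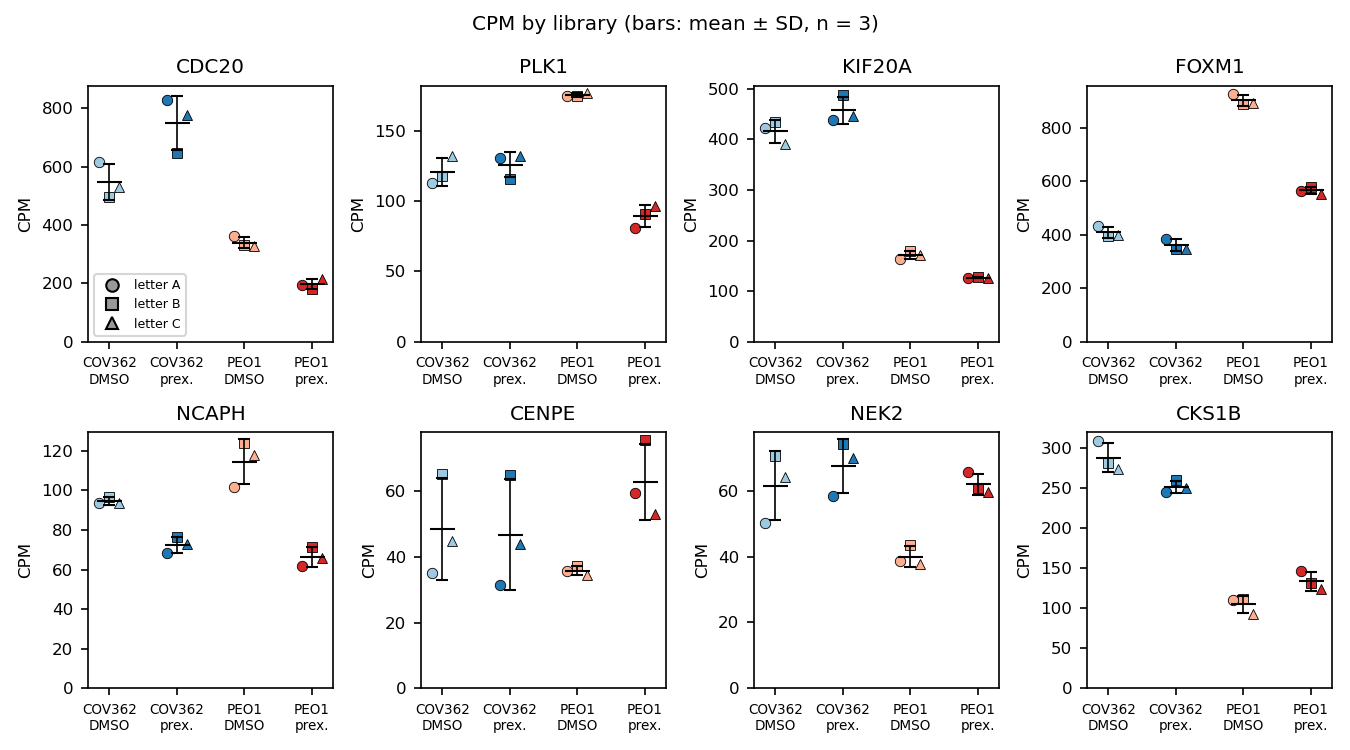
CPM (y axis) of 8 members in each of the 12 libraries, by group (x axis), with letters A, B and C as circles, squares and triangles and bars for the mean ± SD (n = 3). CDC20, PLK1, KIF20A, FOXM1 and NCAPH have every PEO1 prexasertib library below the PEO1 DMSO libraries, and CENPE, NEK2 and CKS1B have every one above.

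The kinetochore genes were divided. SPC24 and SPC25, the subunits that anchor the NDC80 complex to the inner kinetochore, fell together: SPC25 was at 34.53, 33.17 and 24.64 CPM with DMSO and at 17.5, 19.01 and 17.93 CPM with prexasertib. All treated libraries of SPC25 were lower, with a change of -0.76 ± 0.18 (adjusted p = 0.00676). SPC24, a low gene at 9.62 ± 0.640 CPM with DMSO and 5.89 ± 1.23 CPM with prexasertib (SD, n = 3), changed by -0.71 ± 0.19 (adjusted p = 0.0132). The microtubule-binding subunits of the same complex, NDC80 (0.09 ± 0.16) and NUF2 (0.05 ± 0.13), had overlapping groups and did not pass. The length and GC correction turned both below 0: NUF2 was called lower with it (-0.29, adjusted p = 0.0324), and NDC80 with it and the letter together (-0.22, adjusted p = 0.0437). CENPA, the centromeric histone H3, was called lower at -0.54 ± 0.18 (adjusted p = 0.0357), a call lost in 4 of 12 fits that left out 1 library, at adjusted p = 0.101 and 0.0516 without PEO1 DMSO A and B and 0.0959 and 0.0645 without PEO1 prexasertib B and C. CENPE, the kinesin of chromosome alignment (chr4:103105806-103198409, - strand), was at 35.77, 37.13 and 34.31 CPM with DMSO and at 59.49, 75.5 and 52.93 CPM with prexasertib. All treated CENPE libraries were higher, the B library most, and the change was 0.81 ± 0.25 (adjusted p = 0.0278), a call lost in 5 of 12 fits that left out 1 library. Those were PEO1 DMSO A, B or C (adjusted p = 0.0914, 0.0675 and 0.103) and PEO1 prexasertib A or B (adjusted p = 0.0532 and 0.148). CENPF, a large protein of the outer kinetochore, had a value of 0.23 ± 0.18 and did not pass, but was called higher with the letter as a term (0.21, adjusted p = 0.0386). CENPF was not called with the letter and the correction together.

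The 4 members of the chromosomal passenger complex, which corrects wrong attachments, all had values below 0, from -0.48 ± 0.25 for BIRC5 (survivin) to -0.20 ± 0.19 for the kinase AURKB, and none passed. With the letter as a term all 4 were called lower, BIRC5 (-0.47, adjusted p = 1.24e-05), CDCA8 (-0.31, adjusted p = 0.00153), INCENP (-0.30, adjusted p = 0.027) and AURKB (-0.21, adjusted p = 0.0435). INCENP and AURKB were not called with the letter and the correction together. Of the 7 spindle motor and microtubule proteins none passed: KIF11, the kinesin that pushes the spindle poles apart, was at 138.2, 141.2 and 123.6 CPM with DMSO and at 121, 123.1 and 103.5 CPM with prexasertib. The KIF11 treated libraries lay just below the DMSO libraries (-0.21 ± 0.13, adjusted p = 0.245). The highest of these 7 was HMMR at 0.30 ± 0.25 and TPX2, an activator of AURKA, had a value of 0.00 ± 0.12. In the fit with the letter 4 of the 7 passed, KIF11 lower (-0.22, adjusted p = 0.0235) and HMMR (0.30, adjusted p = 0.00676), NUSAP1 (0.27, adjusted p = 0.00581) and KIF2C (0.24, adjusted p = 0.0102) higher. DLGAP5 had a value of 0.03 ± 0.21 and was called lower with the letter and the correction together (-0.30, adjusted p = 0.00605). KIF4A, at -0.12 ± 0.13, was called lower in that fit as well (-0.20, adjusted p = 0.0118), whereas HMMR and NUSAP1 were not called in it. In cytokinesis, KIF20A, the kinesin that brings PLK1 and the passenger complex to the central spindle (chr5:138178728-138187715, + strand), was at 163.6, 180.3 and 170.7 CPM with DMSO and at 126, 129.1 and 126.1 CPM with prexasertib. KIF20A groups were tight and apart, with a change of -0.43 ± 0.10 (adjusted p = 0.00722). PRC1, which bundles the antiparallel microtubules of the central spindle, was at 129.4, 166 and 158.2 CPM with DMSO and at 79.22, 102.5 and 97.66 CPM with prexasertib, a change of -0.70 ± 0.16 (adjusted p = 0.00485). The centralspindlin subunits KIF23 (-0.34 ± 0.16) and RACGAP1 (0.20 ± 0.16), the scaffold ANLN (-0.25 ± 0.28) and the RhoA activator ECT2 (-0.05 ± 0.33) did not pass. In the fit with the letter KIF23 (-0.33, adjusted p = 0.000877) and ANLN (-0.25, adjusted p = 0.00957) were called lower and RACGAP1 higher (0.20, adjusted p = 0.0347). ECT2 was called lower with the letter and the correction together (-0.39, adjusted p = 0.000119), and RACGAP1 was not called in that fit.

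Among chromosome structure genes, NCAPH, the kleisin subunit of condensin I (chr2:96335741-96377095, + strand), was at 101.8, 124.1 and 117.7 CPM with DMSO and at 61.72, 71.54 and 65.79 CPM with prexasertib. NCAPH groups did not overlap, and the change was -0.79 ± 0.12 (adjusted p = 0.000325). The condensin ATPase subunits had values in the other direction without passing, SMC2 at 0.47 ± 0.24 (adjusted p = 0.151) and SMC4 at 0.52 ± 0.28 (adjusted p = 0.179), and every treated library of each lay above the DMSO libraries. NCAPG, another subunit of condensin I, had a value of 0.07 ± 0.13, and it was called lower with the letter and the correction together (-0.24, adjusted p = 0.00528). TOP2A, the topoisomerase that untangles sister chromatids, was at 344.4, 515.1 and 544.3 CPM with DMSO and at 345.8, 538 and 440 CPM with prexasertib. Both TOP2A groups had the A library lowest by a wide margin, and the difference between them (-0.08 ± 0.32) was smaller than that spread. TOP2A was called lower with the letter and the correction together (-0.39, adjusted p = 2.93e-06). MKI67, the coat protein of mitotic chromosomes known as Ki-67, was at 432.9, 428.3 and 462.4 CPM with DMSO and at 474.7, 660 and 471.5 CPM with prexasertib, where the B library alone stood out (0.28 ± 0.18, adjusted p = 0.263). Once the letter was a term, SMC4 (0.52, adjusted p = 2.11e-06), SMC2 (0.46, adjusted p = 5.6e-05) and MKI67 (0.26, adjusted p = 0.0128) were called higher. With the letter and the correction together SMC4 (0.16, adjusted p = 0.0331) and MKI67 (0.14, adjusted p = 0.0469) were still called, and SMC2 was not.

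The PEO1 counts depended on how the letters and base composition were handled. With the letter as a term within each line, 14 members were called higher (25.8% of all genes) and 21 lower (25.5%), and all 12 calls above were kept. The length and GC correction gave 2 higher (17.1% of all genes; NEK2 and KIF2C, a microtubule depolymerase) and 17 lower (17.8%), and CENPE (0.36, adjusted p = 0.0534), CKS1B (0.14, adjusted p = 0.268) and SPC24 (-0.62, adjusted p = 0.0644) were lost. With both together, 6 were higher (23.1% of all genes; NEK2, CENPE, KIF2C, PTTG1, SMC4 and MKI67) and 28 lower (25.2%). The higher calls of the letter fit that were lost there were CKS1B, CKS2, MAD2L1, CENPF, HMMR, NUSAP1, RACGAP1 and SMC2. The lower calls lost there were ESPL1, INCENP and AURKB. Higher calls made up 25% of the called members without either, 40% with the letter, 10.5% with the correction and 17.6% with both, shares that moved with the number of lower calls as well as with that of higher ones. Without the A libraries 6 members were higher (17.3% of all genes) and 16 lower (16.4%). Without the B libraries 1 was higher (7.8%; NEK2) and 5 lower (7.99%; FOXM1, PLK1, CDC20, PRC1 and NCAPH). NEK2 as the gene that rose, and FOXM1, PLK1, CDC20, PRC1 and NCAPH as those that fell, passed in each of these 5 fits.

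COV362 showed no mitotic gene past the threshold without the letter as a term. With it 3 were higher (5.74% of all genes) and 8 lower (7.9%), as given below. Without it none of the 48 members was called higher or lower by edgeR (0.607% and 0.221% of all genes were), in a comparison that called 0.828% of genes in all. At an unadjusted p under 0.05, 2 members were higher and 4 lower, beside 6.33% and 6.29% of all genes, so these counts were near the background. DESeq2 called 2 higher (CDC20 and KIF2C; 2.07% of all genes) and 1 lower (NCAPH; 1.61%), and limma-voom called 0. The median log2 change was -0.0708 for the members and -0.0109 for all genes, and single members ranged from -0.54 (SPC25) to 0.46 (CDC20). In 3 members every treated library was higher (6.82% of all genes) and in 6 every one was lower (7.63%).

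CDC20 had the highest value in COV362, at 614.6, 496.3 and 529.6 CPM with DMSO and at 827.2, 646.2 and 775.2 CPM with prexasertib. All treated CDC20 libraries were above the DMSO libraries, but the change of 0.46 ± 0.13 did not pass (adjusted p = 0.134). PLK1 was at 112.8, 117.8 and 131.7 CPM with DMSO and at 130.8, 115.4 and 131.7 CPM with prexasertib, a difference of 0.06 ± 0.11 within the spread of the libraries. FOXM1 was at 431.5, 395.7 and 400 CPM and then at 385.8, 347.9 and 348.7 CPM, lower in every treated library by a small amount (-0.18 ± 0.10, adjusted p = 0.513). At the kinetochore, SPC25 and SPC24 had values below 0 without passing: SPC25 was at 66.1 ± 13.9 CPM with DMSO and 45.5 ± 6.95 CPM with prexasertib (SD, n = 3; -0.54 ± 0.18, adjusted p = 0.207), and SPC24 changed by -0.53 ± 0.19 (adjusted p = 0.246). NCAPH was at 93.52, 96.9 and 93.72 CPM and then at 68.22, 76.38 and 72.93 CPM, with groups apart and a change of -0.39 ± 0.12 (adjusted p = 0.161). KIF11 was at 276.9, 326.5 and 281 CPM with DMSO and at 204.5, 269.5 and 238.2 CPM with prexasertib (-0.31 ± 0.13, adjusted p = 0.335).

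Members with little difference in COV362 included AURKA, at 478.4, 430.7 and 416.4 CPM with DMSO and 511.1, 527.6 and 475.9 CPM with prexasertib (0.19 ± 0.11). CKS1B was at 308.7, 281.3 and 274 CPM and then at 245, 259.9 and 249.8 CPM, lower in every treated library (-0.20 ± 0.12), whereas CKS2 was at 482.5, 375.1 and 394.9 CPM and then at 525.1, 403.5 and 422 CPM, with overlapping groups. In several long genes libraries of different letters differed more than the treatment groups. CENPE was at 35.09, 65.29 and 44.9 CPM in DMSO libraries A, B and C and at 31.45, 64.84 and 43.91 CPM with prexasertib, and BUB1B at 69.2, 147.1 and 110.9 CPM and 57.58, 120.2 and 101 CPM. TOP2A was at 361, 852.4 and 579 CPM and then at 269.5, 620.5 and 473.8 CPM, and MKI67 at 560.4, 846.2 and 638.9 CPM and then at 599.5, 812.4 and 620.4 CPM. In all 4 of these genes the B library was the highest of its group and the A library the lowest.

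With the letter within line as a term, COV362 had 3 members higher (5.74% of all genes) and 8 lower (7.9%). CDC20 (0.45, adjusted p = 0.000123), KIF2C (0.31, adjusted p = 0.00701) and HMMR (0.27, adjusted p = 0.0406), a spindle-pole protein, were the higher ones. SPC25 (-0.53, adjusted p = 0.00106), TOP2A (-0.39, adjusted p = 0.00103), NCAPH (-0.39, adjusted p = 0.00263), SMC2 (-0.37, adjusted p = 0.00493), ECT2 (-0.34, adjusted p = 0.00891), KIF11 (-0.32, adjusted p = 0.00555), CENPF (-0.26, adjusted p = 0.0383) and ANLN (-0.24, adjusted p = 0.0338) were the lower ones. With the letter and the length and GC correction together, SMC2, CENPF and ANLN were not called. That fit also called SPC24 (-0.66, adjusted p = 0.0117), CKS1B (-0.24, adjusted p = 0.00646), NUF2 (-0.23, adjusted p = 0.0436), FOXM1 (-0.22, adjusted p = 0.00652) and PRC1 (-0.19, adjusted p = 0.0372) lower. It called TPX2 higher (0.19, adjusted p = 0.0194).

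Without the letter as a term, the response differed between the lines for CDC20, PLK1 and KIF20A. With it 11 members were higher and 15 lower (17.8% and 16% of all genes), named below. The test was the interaction, the log2 change in PEO1 minus that in COV362. Without the letter it called 0 members higher and 3 lower, beside 3.14% and 2.97% of all genes and 6.1% in either direction. CDC20 had the largest difference, -1.24 ± 0.19 (adjusted p = 0.00374), its fitted change being 0.46 in COV362 and -0.79 in PEO1. PLK1 differed by -1.03 ± 0.16 (adjusted p = 0.00444), with 0.06 in COV362 and -0.97 in PEO1. KIF20A, at 422.5, 435.4 and 391.1 CPM in COV362 with DMSO and 438.7, 487.6 and 446.7 CPM with prexasertib, differed by -0.57 ± 0.15 (adjusted p = 0.0385). The KIF20A call was lost in 9 of the 12 fits that left out 1 library (adjusted p 0.0377 to 0.0895), and kept only without COV362 DMSO A or without COV362 prexasertib A or B, whereas CDC20 and PLK1 were called in all 12.

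Other members that fell in PEO1 did not pass the test of the difference. FOXM1 differed by -0.49 ± 0.15 (adjusted p = 0.0612), NCAPH by -0.40 ± 0.17 (adjusted p = 0.149), SPC25 by -0.22 ± 0.25 (adjusted p = 0.618) and SPC24 by -0.18 ± 0.27 (adjusted p = 0.715). The members that rose in PEO1 had positive differences that did not pass, CENPE at 0.86 ± 0.36 (adjusted p = 0.153), CKS1B at 0.55 ± 0.17 (adjusted p = 0.0656) and NEK2 at 0.50 ± 0.21 (adjusted p = 0.151). AURKA (-0.31 ± 0.16), CKS2 (0.29 ± 0.21), TOP2A (0.31 ± 0.45), MKI67 (0.29 ± 0.25), BUB1B (0.15 ± 0.41) and KIF11 (0.10 ± 0.19) did not pass either. With the letter within line as a term 11 members were called higher (17.8% of all genes) and 15 lower (16%). The higher ones were CENPE (0.86, adjusted p = 3.55e-05), SMC2, SMC4, CKS1B (0.54, adjusted p = 0.000372), NEK2 (0.50, adjusted p = 0.00522), CENPF, TTK, MAD2L1, NUSAP1, TOP2A (0.31, adjusted p = 0.0335) and CKS2 (0.29, adjusted p = 0.0357). The lower ones were CDC20, PLK1 and KIF20A with CDCA3, BIRC5, PRC1, CENPA, FOXM1 (-0.49, adjusted p = 0.000467), CDCA8, BUB1, UBE2C, NCAPH (-0.40, adjusted p = 0.0111), KIF23, CCNB2 and AURKA (-0.30, adjusted p = 0.0354). The correction for length and GC gave 0 higher (4.19%) and 6 lower (4.15%; PLK1, CDC20, CENPA, KIF20A, KIF23 and NCAPH), and both together gave 2 higher (11.5%; CKS1B and SMC2) and 21 lower (13%). After the correction alone CDC20 differed by -0.82 (adjusted p = 0.00367) and PLK1 by -0.64 (adjusted p = 0.0432). Without the B libraries no member passed (0.166% of all genes were higher and 0.0483% lower), CDC20 differing by -1.24 (adjusted p = 0.0586) and PLK1 by -1.09 (adjusted p = 0.0678).

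In the DMSO libraries 27 of the 48 members were lower in PEO1 than in COV362 and 5 were higher, beside 28.6% and 29.1% of all genes and 57.7% in either direction. The median log2 difference was -0.518 for the members and -0.00773 for all genes. In 26 members every PEO1 library lay below every COV362 library (31.1% of all genes) and in 6 above (32.4%). The lower members were spread over all roles, with 5 of 6 cytokinesis genes, 4 of 5 entry genes, 3 of 4 anaphase genes and 4 of 7 motor and microtubule genes among them. The rest were 3 of 5 checkpoint genes, 2 of 4 mitotic kinases, 3 of 7 kinetochore genes, 2 of 6 chromosome structure genes and 1 of 4 passenger genes. CDCA3, ESPL1 and ANLN had overlapping groups, and their calls were lost in 7, 4 and 3 of 12 fits that left out 1 library. The NCAPG call was lost in 5, KIF23 in 3, TPX2 in 2 and HMMR in 1.

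CKS2 had the largest difference, at 482.5, 375.1 and 394.9 CPM in COV362 and 107.7, 88.93 and 87.71 CPM in PEO1, which is 4.40-fold lower (log2 -2.14 ± 0.16, adjusted p = 5.71e-08). PTTG1, the securin that inhibits separase, was at 771.4, 424.9 and 453.6 CPM in COV362 and 237.5, 190.7 and 154.8 CPM in PEO1 (-1.50 ± 0.25, adjusted p = 0.000144). AURKB, the kinase of the passenger complex, was at 219.7, 146.1 and 168.4 CPM and at 66.12, 61.73 and 63.96 CPM (-1.48 ± 0.19, adjusted p = 1.59e-05). In each of these 3 genes the COV362 A library was the highest of its group and the groups were still apart. CKS1B (-1.46 ± 0.12), CENPF (-1.35 ± 0.18), KIF20A (-1.28 ± 0.11), KIF11 (-1.13 ± 0.13) and AURKA (-0.95 ± 0.11) were lower with adjusted p between 2e-07 and 2.26e-05. CDC20 (-0.69 ± 0.13, adjusted p = 0.000493), BUB1B (-0.84 ± 0.29, adjusted p = 0.0243) and MKI67 (-0.63 ± 0.18, adjusted p = 0.00838) were lower as well. TOP2A (-0.35 ± 0.32) and CENPE (-0.44 ± 0.25) had overlapping groups and did not pass in this fit. Both were called lower once the letter was a block, TOP2A at -0.29 (adjusted p = 0.0254) and CENPE at -0.40 (adjusted p = 0.017). The same held when trends on length and GC were removed, at -0.47 for TOP2A (adjusted p = 0.0206) and -0.54 for CENPE (adjusted p = 0.00282).

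FOXM1 was the member most raised in PEO1, with 888.4 to 926.8 CPM against 395.7 to 431.5 CPM in COV362 (1.14 ± 0.10, adjusted p = 5.89e-07). BIRC5, the survivin subunit of the passenger complex, was at 276, 150.6 and 172.9 CPM in COV362 and at 537.1, 371.7 and 344.6 CPM in PEO1 (1.07 ± 0.25, adjusted p = 0.00245). SMC4 was at 140.2, 327.8 and 255.2 CPM in COV362 and at 381.4, 533.2 and 553.3 CPM in PEO1 (1.02 ± 0.28, adjusted p = 0.00683). PLK1 (0.54 ± 0.11, adjusted p = 0.00115) and NDC80 (0.51 ± 0.16, adjusted p = 0.0131) completed the 5 higher members. The BUB1B call was lost without COV362 DMSO B or C or PEO1 DMSO A (adjusted p = 0.122, 0.0562 and 0.099), and the NDC80 call without COV362 DMSO C or PEO1 DMSO B (adjusted p = 0.0541 and 0.0702). PLK1 and FOXM1 were thus higher in PEO1 before treatment and were among the members that fell there with the drug. After prexasertib the FOXM1 level in PEO1 (566 ± 13.3 CPM, SD, n = 3) was still above that in COV362 (361 ± 21.7 CPM), while PLK1 (89.3 ± 7.60 CPM) was below it (126 ± 9.19 CPM).

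Per kilobase of exon, the most abundant members in COV362 with DMSO were CKS2 (678 ± 92.8 RPKM, SD, n = 3), PTTG1 (474 ± 166 RPKM), CDC20 (327 ± 36.4 RPKM) and CKS1B (312 ± 19.8 RPKM). CDC20 and CKS1B did not differ beyond their spread. PTTG1 and CDC20 overlapped in their SD, but PTTG1 was above CDC20 in each library. In A, B and C it was at 665, 366.3 and 391 RPKM, and CDC20 at 367.1, 296.5 and 316.4 RPKM. In PEO1 with DMSO the order was FOXM1 (247 ± 5.88 RPKM), CDC20 (203 ± 11.7 RPKM), PTTG1 (168 ± 35.8 RPKM), BIRC5 (155 ± 38.6 RPKM) and CKS2 (154 ± 18.2 RPKM), of which the last 3 overlapped in their spread. The lowest members per kilobase in both lines were CENPE (5.62 ± 1.79 RPKM in COV362 and 4.15 ± 0.164 RPKM in PEO1) and PLK4 (7.92 ± 0.448 and 7.56 ± 0.108 RPKM). PLK4 overlapped in its spread with INCENP in COV362 (8.50 ± 1.66 RPKM) and with ESPL1 in PEO1 (7.77 ± 1.73 RPKM).

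**Figure D3:**
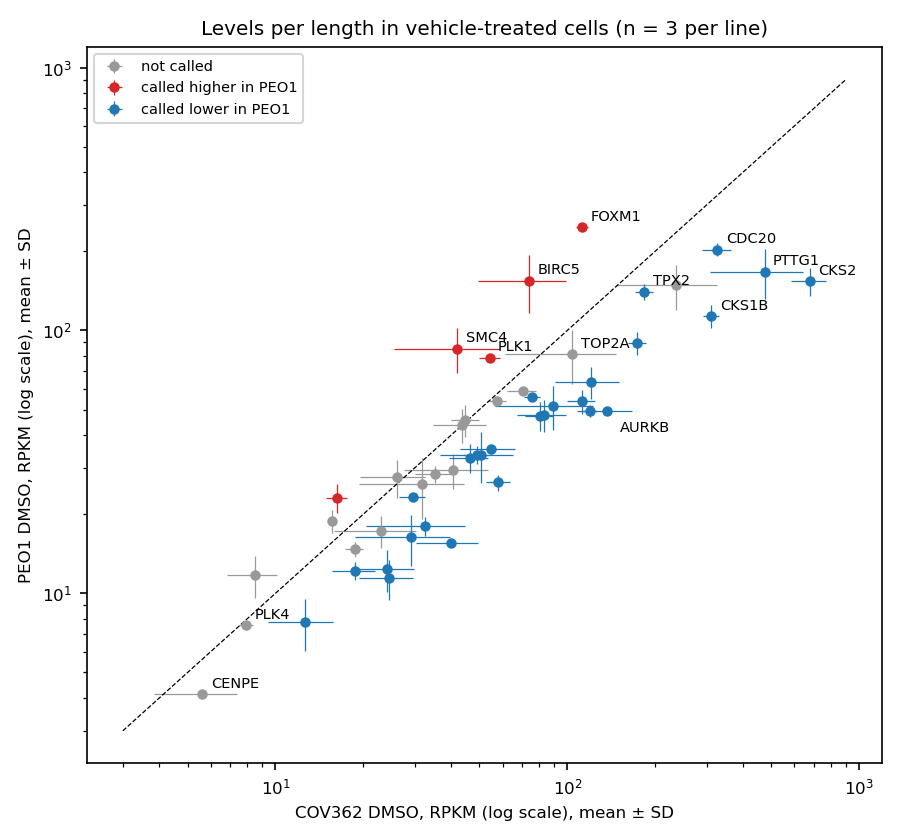
RPKM of the 48 members in DMSO-treated COV362 (x axis) and PEO1 (y axis), both on log scales, as mean ± SD of 3 libraries, with the dashed line at equal levels. The 27 members called lower in PEO1 (blue) lie below the line and the 5 called higher (red) above it.

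The changes went with base composition. The members' exons spanned 616 to 12495 bases (median 3232, beside 3300 over tested genes), and their transcripts were 35.3% to 59.6% GC (median 43.4%, beside 48.3%). Spearman's rho between a member's change and its GC content, over 48 genes that share all 12 libraries, was -0.564 in PEO1, 0.414 in COV362 and -0.71 for the interaction. Over all tested genes the same rho was -0.414, 0.19 and -0.501, so the relation was not confined to mitotic genes. The 24 GC-richer members had a median change of -0.316 in PEO1, with 8 lower and 1 higher, and the 24 AT-richer members had 0.0844, with 1 lower and 2 higher. In COV362 the order was opposite, 0.0673 for the GC-richer and -0.191 for the AT-richer members. Length gave a weaker relation than GC in PEO1, with rho of 0.131 (0.0723 over all tested genes). In COV362 rho for length was -0.378 (-0.25 over all tested genes), near the size of that for GC. The 24 shorter members had 6 lower and 1 higher in PEO1 and the 24 longer ones 3 lower and 2 higher.

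A correction that removed smooth trends of each library on length and GC, including any that go with the drug, left rho for GC at -0.141 in PEO1, 0.182 in COV362 and -0.214 for the interaction. After it the PEO1 medians were -0.254 for the GC-richer members (10 lower, 1 higher) and -0.227 for the AT-richer ones (7 lower, 1 higher), so that more of the AT-rich genes were called lower than before. BUB1 (-0.80, adjusted p = 0.000753), KIF23 (-0.55, adjusted p = 0.000345), CCNB2 (-0.51, adjusted p = 0.00587) and KIF11 (-0.55, adjusted p = 0.00395) were among those called lower after the correction and not before it. CDC20 (-0.48, adjusted p = 0.00226), PLK1 (-0.69, adjusted p = 0.000866) and FOXM1 (-0.44, adjusted p = 0.000559) remained lower with smaller values. Whether the trend with GC comes from the library preparation or from the cells was not tested.

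**Figure D4:**
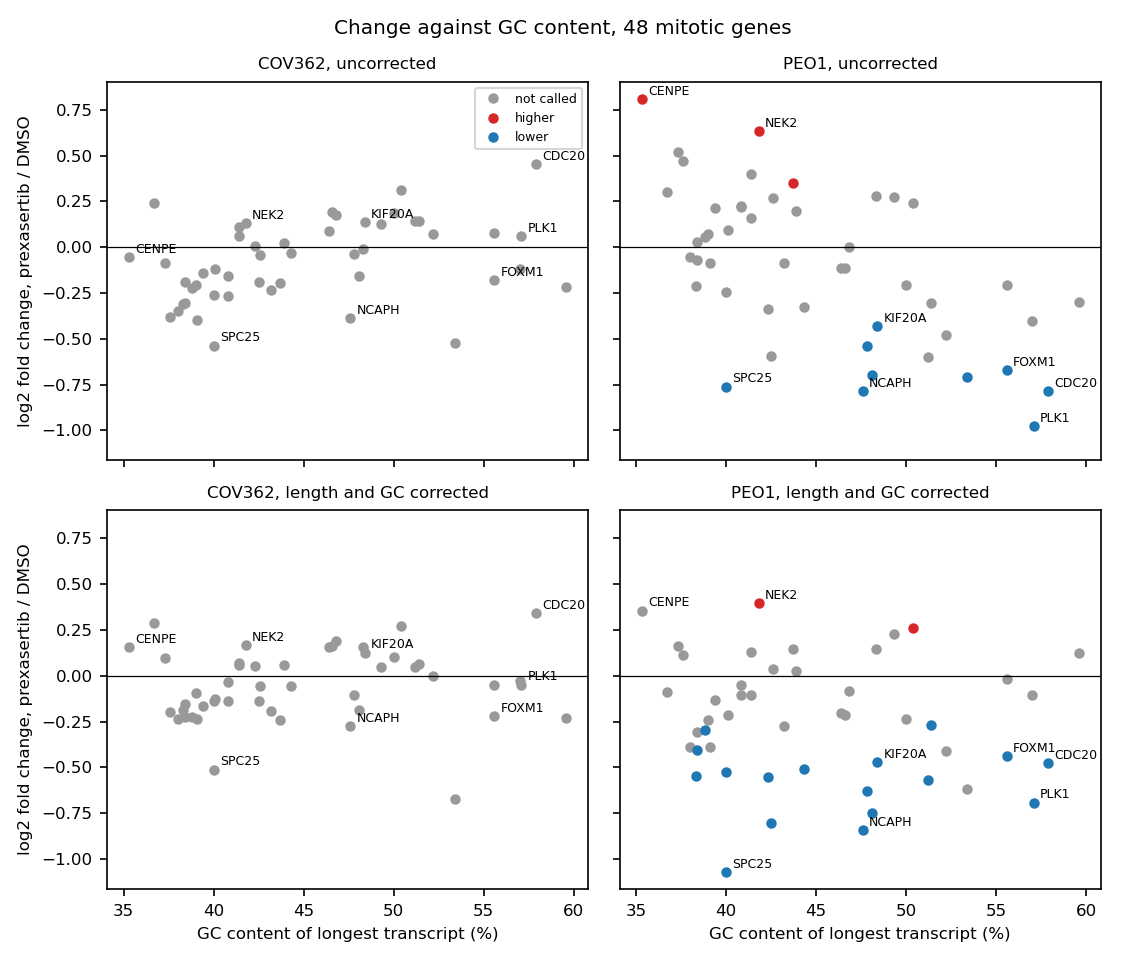
Log2 change of prexasertib over DMSO (y axis) against GC content in percent (x axis) for the 48 members in COV362 (left) and PEO1 (right), before (top) and after (bottom) the length and GC correction, with called genes in red (higher) and blue (lower). In PEO1 the changes slope downward with GC before the correction (rho -0.564) and less so after it (rho -0.141).

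Within groups the letters moved the longer members. In the A and B libraries the medians of the shorter members moved less and in the opposite direction. Over all tested genes the deviations went with GC content as well as with length. In COV362 with prexasertib, rho was 0.491 for GC and -0.388 for length in A, and -0.591 and 0.386 in B. In PEO1 with DMSO it was 0.316 and -0.38 in A, and -0.403 and 0.14 in B. In the A libraries the median deviation from the group mean was lower for the 24 longer than for the 24 shorter members, by -0.381 and -0.24 on the log2 scale in COV362 with DMSO and prexasertib and by -0.163 and -0.173 in PEO1. In the B libraries the difference was positive, 0.308 and 0.287 in COV362 and 0.0777 and 0.236 in PEO1. In the C libraries it lay between -0.0186 and 0.123. CENPE, BUB1B, TOP2A, ANLN, ECT2 and SMC4 in COV362, where the B library was above the A library in both treatments, are among the members with the widest such spread.

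**Figure D5:**
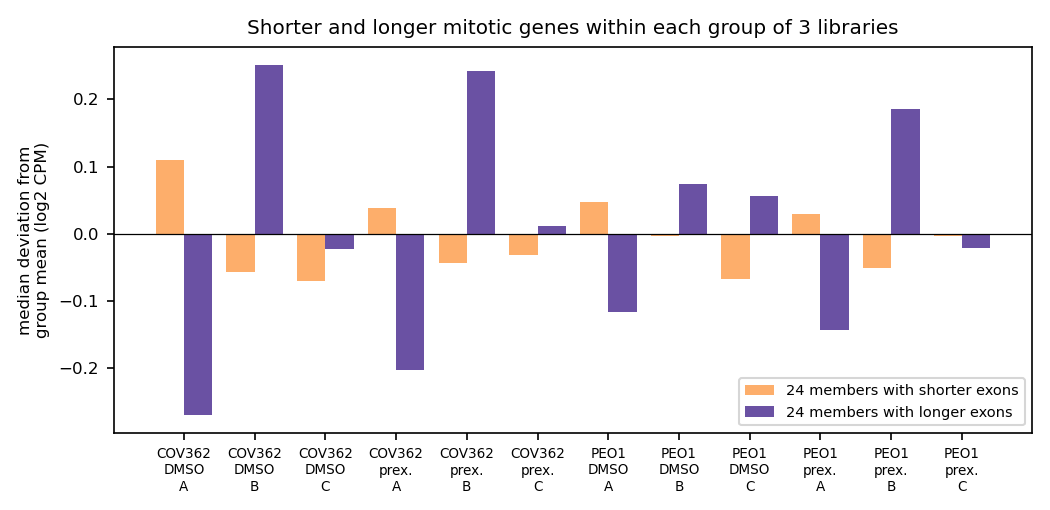
Median deviation from the group mean in log2 CPM (y axis) of the 24 shorter (orange) and 24 longer (purple) members in each of the 12 libraries (x axis). Longer members are below the group mean in all 4 A libraries and above it in all 4 B libraries.

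Some member counts may hold reads of other genes. The exons of 10 members overlap those of another listed gene, most in NCAPG (32.9% of its exon bases, with LCORL on the opposite strand), FOXM1 (12.3%), PRC1 (10.6%) and HMMR (9.71%). For PLK1 the overlap was 2.83% and for KIF20A 1.96%. The library kit does not mark strand, so reads from opposite strands cannot be told apart there. CKS1B, PTTG1 and CDC20 have retrotransposed copies in the genome, and how reads with several matches were counted is not given in the sources used here, so their levels are less certain.

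Outside the 48 members, 92 further mitotic genes were listed by role, and all were tested. With prexasertib 20 of them fell in PEO1 and 5 rose, beside 14.6% and 14.7% of all genes, with a median log2 change of -0.0705. Of 8 entry genes 5 fell, namely PKMYT1, the kinase that inhibits CDK1, the cyclins CCNA2 and CCNB1, MELK and GTSE1. Of 5 genes of the transcription complexes that act through the CHR, MYBL2 fell, LIN52 and LIN54, both core MuvB subunits, rose, and LIN9 and LIN37 did not pass. The kinetochore group of 22 had 5 lower (CENPM, OIP5, CENPK, SPDL1 and HJURP) and 2 higher (MIS12 and CENPQ). In COV362 none of the 92 passed by edgeR without the letter as a term. At an unadjusted p under 0.05 in that fit, 3 were higher and 11 lower (6.33% and 6.29% of all genes).

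By size the leading ones in PEO1 were PKMYT1 and TACC3 among those that fell and MIS12 and LIN54 among those that rose. PKMYT1 was at 10.77, 9.881 and 16.11 CPM with DMSO and at 4.58, 5.495 and 8.088 CPM with prexasertib (-1.02 ± 0.33, adjusted p = 0.0325), and after the length and GC correction its value was -0.35 (adjusted p = 0.277). Its call was also lost without PEO1 DMSO C (adjusted p = 0.111) and without PEO1 prexasertib A or B (adjusted p = 0.115 and 0.0804). TACC3, which stabilises kinetochore microtubules, went from 213.4, 164.6 and 178.6 CPM to 109.3, 88.36 and 103.3 CPM (-0.89 ± 0.19, adjusted p = 0.00341). MIS12, a scaffold of the outer kinetochore, went from 17.69, 20.79 and 20.18 CPM to 32.3, 41.05 and 38.15 CPM (0.93 ± 0.14, adjusted p = 0.000436). LIN54, the MuvB subunit that contacts the CHR, went from 19.39, 26.49 and 31.24 CPM to 41.34, 49.4 and 47.02 CPM (0.84 ± 0.26, adjusted p = 0.0251), a call lost without PEO1 DMSO A or B (adjusted p = 0.132 and 0.0647) and without PEO1 prexasertib B or C (adjusted p = 0.0968 and 0.0809). All treated libraries lay outside the DMSO range in these 4 genes. The interaction called MIS12 (0.93 ± 0.20, adjusted p = 0.0189), CENPQ and FBXO5 higher and TACC3 (-1.12 ± 0.26, adjusted p = 0.027), MAD1L1 and FAM83D lower, which is 3.26% of the 92 in each direction beside 3.14% and 2.97% of all genes. With DMSO, 34 of the 92 (37%) were lower in PEO1 than in COV362 and 16 (17.4%) higher, beside 28.6% and 29.1% of all genes, with a median of -0.142.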

How the data were processed

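RNA was measured by RNA-seq in 12 libraries, 3 for each of 4 groups, prepared with the TruSeq RNA v2 kit per the labels' protocols, which selects poly(A) RNA and does not mark strand. The authors deposited 1 table of whole-number read counts per gene with exon coordinates and exon length, and STAR, Subread and featureCounts 1.4.6 with the hg38 build are named in the submitters' processing notes. The annotation and the handling of reads with several matches are not given in the sources used here. No sample column was left unmapped (0).

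From these counts a negative binomial model with 4 group means was fitted in edgeR 4.0.16 (R 4.3.3; TMM scaling, filterByExpr with a minimum count of 10 and a minimum total of 15, 14498 genes, 8 residual degrees of freedom) and tested by the quasi-likelihood F-test with Benjamini-Hochberg adjustment over all tested genes, called at 0.05. Log2 changes carry the standard error of the fit, and spreads of CPM and RPKM are SD over 3 libraries. CPM and RPKM were computed from the deposited counts, RPKM with the deposited exon length. The method was tested on simulated data of independent libraries with no letter, length or GC effect, so that test does not cover such effects. Alternatives were DESeq2 1.42.0, limma 3.58.1 (voom), other size factors, no low-count filter, only the libraries compared, each library left out, the letter as a block, a length and GC correction (natural splines with 5 degrees of freedom, GC of the longest reference transcript, known for 94.5% of genes), a threshold of 0.01 and a 1.5-fold minimum. The omission of all A or all B libraries, and the block within line with the correction, were added after seeing the data.

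Letters recur in each group. Deviations from the group means of same-letter libraries correlated over all tested genes at 0.533, 0.547 and 0.183 (A, B, C) in COV362 and 0.418, 0.243 and 0.12 in PEO1, all over 0.1, so the letters were taken to pair the libraries. In PEO1, DMSO C correlated more with prexasertib B (0.303).

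The members and the lists of other genes were chosen with earlier results of these data known. Members given by library were the 4 highest and 4 lowest called members of each drug comparison, the 3 highest and 3 lowest of the interaction and the DMSO comparison, and a fixed set of 11 (PLK1, CDC20, AURKA, BUB1B, CENPE, KIF11, TOP2A, FOXM1, MKI67, CKS1B and CKS2). Of the other mitotic genes, the 2 highest and 2 lowest called with at least 1 CPM were given. Any other member could be named with its change, and PRC1 was given by library after its values were seen. Library totals of 9390790 to 18262805 counts set the precision, and replicate libraries differed by more than sampling noise.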

Additional observations from a re-analysis of the deposited data

Results flagged for a closer look

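Without the letter as a term, the change with prexasertib differed between PEO1 and COV362 by the test of the interaction in 3 members. For CDC20 the PEO1 change minus the COV362 change was -1.24 on the log2 scale, with treated libraries above the DMSO libraries in 3 of 3 in COV362 and below them in 3 of 3 in PEO1. For PLK1 it was -1.03, with overlapping groups in COV362 and 3 of 3 treated libraries lower in PEO1. For KIF20A it was -0.57, with 3 of 3 treated libraries higher in COV362 and 3 of 3 lower in PEO1. The GC content of these transcripts was 57.9% (CDC20), 57.1% (PLK1) and 48.4% (KIF20A), beside a median of 43.4% for the members. After the length and GC correction the differences were -0.82 (CDC20), -0.64 (PLK1) and -0.60 (KIF20A), each still past the threshold of edgeR's test.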

How the results depend on the processing

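In COV362 (0 members higher, 0 lower) the counts were 2 and 1 with DESeq2, 2 and 6 with the replicate block, 3 and 8 with the replicate block within line, 3 and 6 with the block and the length and GC correction and 4 and 10 with the block within line and the correction, and 0 and 0 whichever library was left out. In PEO1 (3 higher, 9 lower) they were 11 and 17 with the replicate block, 14 and 21 with the replicate block within line, 17 lower with the correction, 28 lower with block and correction, 6 and 28 with the block within line and the correction, 6 higher with only the libraries compared, 1 higher at 0.01, 0 and 1 with a 1.5-fold minimum, 6 and 16 without the A libraries and 1 and 5 without the B libraries, and 1 to 4 higher and 8 to 12 lower when 1 library was left out. For the interaction (0 higher, 3 lower) they were 1 and 6 with DESeq2, 6 and 13 with the replicate block, 11 and 15 with the replicate block within line, 6 lower with the correction, 2 and 20 with block and correction, 2 and 21 with the block within line and the correction, 0 lower with a 1.5-fold minimum and 0 lower without the B libraries, and 0 to 2 higher and 2 to 5 lower when 1 library was left out. Between the DMSO groups (5 higher, 27 lower) they were 2 and 12 with a 1.5-fold minimum, 7 and 35 with the replicate block, and 4 to 6 and 21 to 29 when 1 library was left out. No call of the unpaired test was lost under the replicate block alone. Other settings moved no count by over 1.5 times. The cause was not tested.

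Some members that did not pass changed sign, and with the correction NUF2, NDC80, NCAPG and DLGAP5 in PEO1 did so and were called lower in at least 1 fit (values in the report). For the interaction ANLN (-0.396 with block and correction and -0.4 with the block within line and the correction) and HMMR (-0.395 with the latter) also turned and were called lower. In COV362, with the length and GC correction alone, with it and the block and with it and the block within line, PLK1 was at -0.0477, -0.0421 and -0.0413 (and -0.0067 without the A libraries), CENPE at 0.156, 0.156 and 0.159 and MKI67 at 0.16, 0.158 and 0.158 (0.00045 with limma-voom and 0.0244 without the B libraries). Leaving out 1 library gave BUB1B -0.471 to 0.0432, CENPE -0.366 to 0.223, MKI67 -0.161 to 0.176 and CKS2 -0.016 to 0.226 in COV362, and BUB1B -0.32 to 0.0341 and TOP2A -0.314 to 0.0635 in PEO1. For the interaction the same 3 corrections gave BUB1B -0.0842, -0.086 and -0.0911, KIF11 -0.362, -0.365 and -0.364 (adjusted p = 0.231, 0.00658 and 0.00268 by edgeR), TOP2A -0.154, -0.156 and -0.157 and MKI67 -0.014, -0.0158 and -0.0145. Leaving out 1 library gave BUB1B -0.131 to 0.384, KIF11 -0.0166 to 0.2 and TOP2A -0.0361 to 0.601.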
